A study of Mus musculus with 6 samples.

Results

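A set of 9 developmental regulators, from the Onecut, Eya, Six-type and SoxC families and the zinc-finger gene Zfp521, was followed in the bladder of mouse embryos in which Klf5 had been deleted. The members were chosen by their family and by their values in this same contrast, several of them having read higher after the deletion, so their differences are given as a description and not as tests. All 9 members, of 19938 genes tested, were found by their single annotated symbol, and each had 1 array feature. The arrays compared 3 pools labelled Klf5 ∆/∆ with 3 control pools labelled Klf5+/+ with the ShhGfpCre allele. Each pool held 2 bladders of stage E14.5. ShhGfpCre is an insertion at the Shh locus that makes the Cre recombinase, fused to green fluorescent protein, in cells that express Shh, and the epithelium lining the bladder, the urothelium, is such a tissue. The control label carries the Cre allele, the label of the deleted group does not spell it out. The source name speaks of urothelium while the extraction text speaks of whole organs, so a difference can reflect fewer or more cells of a type, or less or more RNA per cell, and these cannot be told apart here.

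Onecut1 and Onecut2 are transcription factors that bind DNA through a CUT domain and a homeodomain, and are known from liver, pancreas and neurons. Eya proteins are transcriptional coactivators with a phosphatase domain that have no DNA-binding domain of their own; they are brought to genes by Six-family homeodomain proteins, in a network with Pax and Dach proteins that builds kidney, ear and skeletal muscle. Sox4, Sox11 and Sox12 form the SoxC group of HMG-box factors, which act in progenitors of nerve and mesenchyme. Zfp521 is a protein of many zinc fingers that binds the Ebf factors. Klf5, the deleted gene, is a zinc-finger factor of epithelia that binds GC-rich and CACCC boxes.

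Klf5 itself read 10.12, 10.34 and 10.23 on the deleted arrays and 10.84, 10.63 and 10.97 on the control arrays, in log2 units, and the groups did not overlap. It fell by 0.59 (SE 0.10, adjusted p = 0.0381 by limma), and where its feature lies relative to the deleted part is not given in the sources used here. Over all genes 395 passed an adjusted p of 0.05 by limma with Benjamini-Hochberg adjustment, which is 1.98% of those tested; 77 were higher (0.386%) and 318 lower (1.59%). The 15 urothelial markers averaged 9.16 to 9.44 on the deleted arrays and 10.64 to 10.86 on the control arrays. The 9 smooth muscle markers averaged 11.86 to 12.07 and 12.08 to 12.38. Control 2 stood apart by its placental transcripts: the 3 placental markers measured averaged 10.36 there and 5.34 to 7.57 on the other 5 arrays. Nothing in the labels says whether the pools of a group came from separate litters, so the spread below may be partly technical.

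Onecut2 differed most among the members. It read 9.71, 9.38 and 9.94 on the deleted arrays and 8.22, 8.59 and 8.42 on the control arrays. Every deleted array lay at least 0.79 above every control array. The means were 9.68 ± 0.28 (SD, n = 3) and 8.41 ± 0.18 (SD, n = 3), a difference of 1.27 on the log2 scale (SE 0.15) or 2.40-fold, with a 95% interval of 1.87 to 3.09-fold. In the order of rises over all 19938 genes, sorted by size alone, Onecut2 stood at place 10. Its paralog Onecut1, the founding factor of the family and first described in liver, read 7.28, 7.07 and 7.15 on the deleted and 6.93, 7.14 and 7.15 on the control arrays. Those groups overlapped, and the Onecut1 difference was 0.09 (95% interval -0.12 to 0.30). No detection calls were used, so whether the Onecut1 feature lay above background is not known here.

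The 3 Eya members all read higher on every deleted array than on any control array. Eya4, a coactivator known from the inner ear and heart, read 10.30, 10.17 and 10.32 on the deleted arrays. On the control arrays Eya4 read 9.41, 9.51 and 9.58. The arrays of each group lay close together, within 0.14 and 0.17, against a gap of 0.60 between the groups. The Eya4 difference was 0.76 (SE 0.07), or 1.70-fold, with a 95% interval of 1.50 to 1.91-fold. Eya1, the family member needed for kidney and ear, read 9.02, 9.33 and 9.91 on the deleted and 8.21, 8.74 and 8.34 on the control arrays. The gap between the Eya1 groups was 0.28, smaller than the range of 0.89 within the deleted group. The Eya1 difference was larger than that of Eya4, at 0.99, and less precise (SE 0.23, 95% interval 0.45 to 1.53). Eya2 read 7.76, 7.80 and 7.84 against 7.17, 7.56 and 7.42, a difference of 0.42 (SE 0.10). Its deleted arrays agreed within 0.07 and its control arrays spread over 0.40, with control 1 lowest.

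Six2, a homeodomain factor that maintains nephron progenitors and a binding partner of Eya proteins, had overlapping groups. It read 8.02, 7.96 and 8.77 on the deleted arrays and 7.58, 8.18 and 7.61 on the control arrays. Control 2 lay above deleted 1 and deleted 2. The Six2 difference was 0.46 (SE 0.25, 95% interval -0.11 to 1.04). It was 0.20 without deleted 3 and 0.66 without control 2.

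Of the SoxC members, Sox11, a factor of neural and mesenchymal progenitors, had separate groups. It read 10.82, 10.96 and 10.86 on the deleted arrays and 10.03, 10.15 and 10.33 on the control arrays. The groups lay 0.49 apart, and the difference was 0.71 (SE 0.09), or 1.63-fold, with a 95% interval of 1.41 to 1.89-fold. Sox4 read 10.40, 10.37 and 10.43 against 10.36, 10.21 and 10.45, and the highest reading of all 6 was that of control 3. The Sox4 difference was 0.06 (95% interval -0.12 to 0.24), and the difference between the paralogs was not tested. Without control 2 the Sox4 difference was -0.0059. Sox12, the other SoxC gene and not a member, averaged 10.96 ± 0.11 (SD, n = 3) and 10.86 ± 0.13 (SD, n = 3), a difference of 0.10 (SE 0.09, adjusted p = 0.711 by limma).

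Zfp521, a cofactor known from blood, bone and neural progenitors, read 11.10, 11.01 and 10.84 on the deleted arrays. It read 10.16, 10.18 and 10.30 on the control arrays. The groups lay 0.53 apart and the difference was 0.77 (SE 0.09), or 1.70-fold, with a 95% interval of 1.48 to 1.96-fold. Deleted 3, the array with the highest Onecut2, Eya1 and Six2 reading, had the lowest Zfp521 reading of its group.

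**Figure D1:**
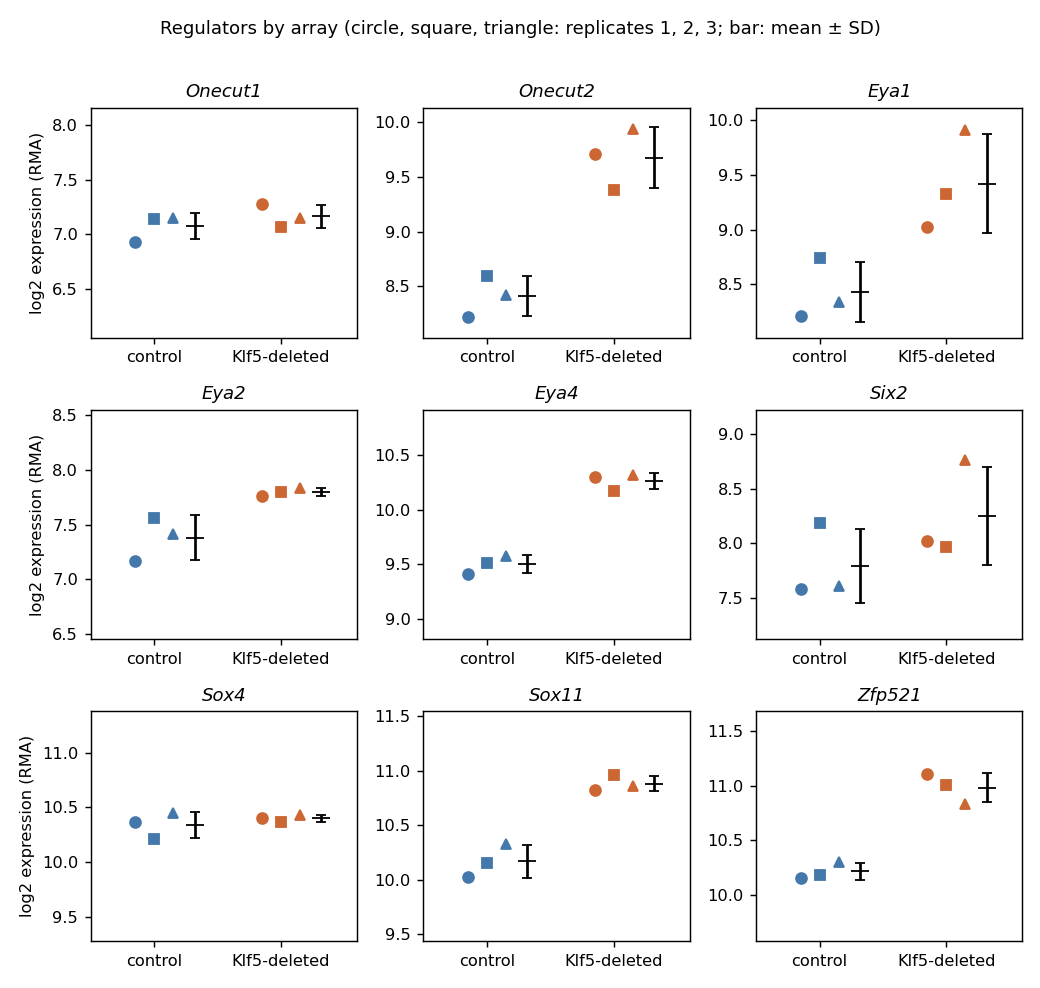
Log2 expression of the 9 regulators on each array, with 1 panel a gene; circles, squares and triangles are replicates 1, 2 and 3, bars show the mean ± SD, and all panels span the same height. Onecut2, Eya1, Eya2, Eya4, Sox11 and Zfp521 have separate groups, while Onecut1, Six2 and Sox4 overlap.

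Read together, 6 of the 9 members had deleted arrays that all lay above the control arrays, a pattern that 8.67% of all genes showed. The adjusted p of the fit was under the threshold in the higher direction for 4 members, Onecut2, Eya4, Sox11 and Zfp521, against 0.386% of all genes. Since the choice of members used this contrast, neither count is evidence about the families. All 9 differences were above 0, with a median of 0.71, where 46.5% of all genes were above 0 and their median was -0.0099. Centring each array on the median of its 9 housekeeping genes raised every difference by 0.21. The middle gene was B2m or Pgk1 on every array, and these 2 differed by -0.28 and -0.20, while the median difference of the 9 was 0.0070. Control 1 gave the lowest of the 6 readings for 8 of the 9 members and deleted 3 the highest for 5 of them.

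**Figure D2:**
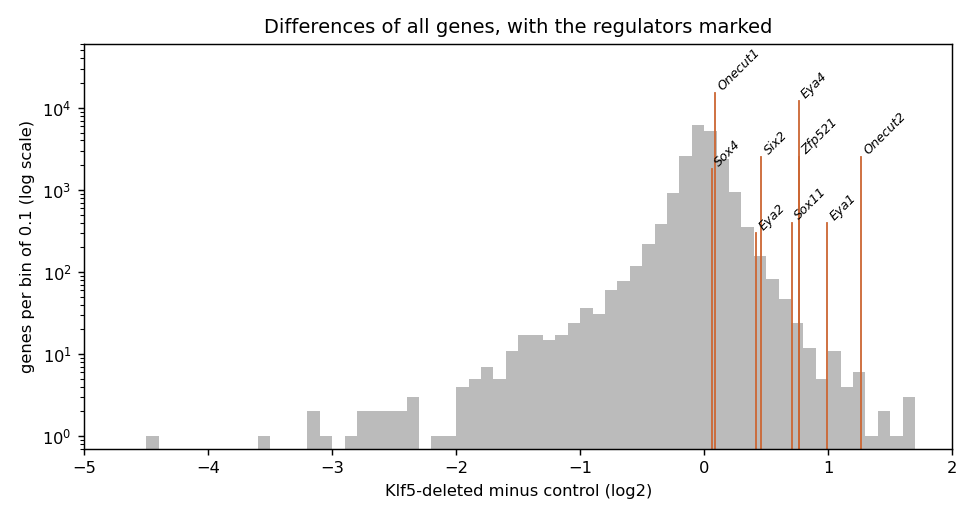
Number of genes (vertical axis, log scale) by log2 difference between Klf5-deleted and control bladders (horizontal axis, bins of 0.1), with the 9 regulators marked by orange lines. All 9 lie right of 0, from Sox4 at 0.06 to Onecut2 at 1.27, in a distribution whose longer tail is on the side of lower genes.

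The members fell into patterns that the contrast alone does not describe. Onecut2, Eya4, Sox11 and Zfp521 differed from array to array within a group by at most 0.56. Eya1 and Six2 varied more. Deleted 3 was the highest of its group and control 2 the highest of the controls for 4 members, Onecut2, Eya1, Eya2 and Six2. Deleted 3 lay 0.49 above its group mean for Eya1 and 0.51 for Six2, and control 2 lay 0.31 and 0.39 above the control mean. For Onecut2 these deviations were 0.26 on deleted 3 and 0.18 on control 2, and for Eya2 they were 0.04 and 0.18. For Sox11 they were -0.02 on deleted 3 and -0.02 on control 2, and for Zfp521 -0.15 and -0.03.

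Skeletal muscle transcripts, which a bladder dissection can carry from the pelvic wall, were spread over the arrays in a like order. The 13 markers, among them Myh3, Myl1, Ttn and Acta1, averaged 9.48, 9.86 and 10.53 on the deleted arrays and 8.89, 9.82 and 9.11 on the control arrays. All 13 differences were above 0, with a median of 0.74 and overlapping list means. None passed the adjusted threshold by limma, while 6 had an unadjusted p under 0.05, against 14.4% of all genes. The embryonic myosin Myh3 read 9.52, 9.94 and 11.24 against 8.27, 9.91 and 8.72. The 14 neuron and glia markers averaged 8.27, 8.39 and 8.63 on the deleted and 8.16, 8.78 and 8.01 on the control arrays. The 5 erythroid markers averaged 12.00, 11.49 and 12.14 against 10.70, 12.35 and 11.71. For the 6 leukocyte markers the means were 8.79, 8.76 and 8.94 against 8.88, 9.45 and 8.69. In these lists too deleted 3 and control 2 were the highest of their groups, so this order was not particular to muscle. The 9 nephric duct and nephron progenitor markers averaged 8.45 to 8.65 and 8.44 to 8.55, with a median difference of 0.02. Of the 9, 5 differed above 0 and 4 below, and none passed the adjusted threshold by limma. An unadjusted p under 0.05 was given by 3 of them, against 14.4% of all genes: Gfra1 at 0.33, Calb1 at 0.25 and Wnt11 at 0.21. The 12 mesenchymal markers averaged 12.17 to 12.21 and 12.20 to 12.31, with a median difference of -0.05. The part of these cell types in the members' differences was not tested. Without control 2 the difference was 1.36 for Onecut2, 1.15 for Eya1, 0.77 for Eya4, 0.70 for Sox11 and 0.75 for Zfp521. Without deleted 3, the array highest in the muscle list, it was 1.13 for Onecut2, 0.74 for Eya1, 0.74 for Eya4, 0.72 for Sox11 and 0.84 for Zfp521.

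**Figure D3:**
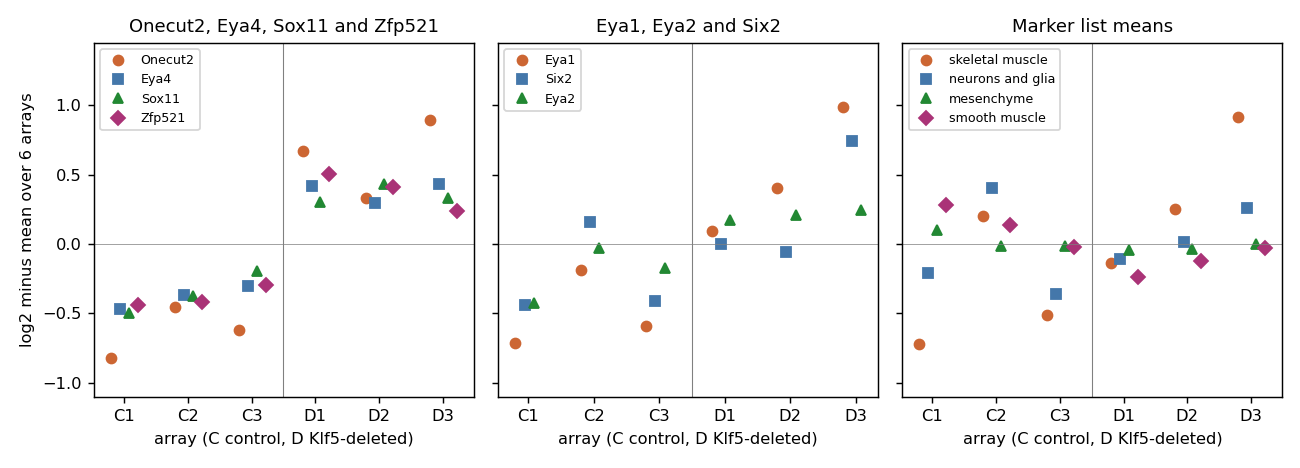
Log2 level minus the mean over 6 arrays, for each control (C1 to C3) and Klf5-deleted array (D1 to D3): at left Onecut2, Eya4, Sox11 and Zfp521, in the middle Eya1, Six2 and Eya2, at right the means of 4 marker lists. The skeletal muscle list is highest on D3 and, among controls, on C2, the arrays on which Onecut2, Eya1, Eya2 and Six2 were also highest. Within its groups the neuron and glia list is also highest on D3 and C2.

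The genes with the most similar profile were looked up for the 3 members that ranged over at least 1 log2 unit, by the root mean square difference between mean-centred values on the 6 arrays. For Eya1 these were Ebf2 at 0.10, Ablim3 at 0.11 and Mylk4 at 0.11. Ebf2 belongs to the Ebf factors that Zfp521 binds, and it read 7.98, 8.20 and 8.72 against 6.96, 7.65 and 7.39. For Six2 they were Rspo2 at 0.08, Mypn at 0.08 and Csrp3 at 0.10. Rspo2 codes for a secreted enhancer of Wnt signalling, and Mypn and Csrp3 code for proteins of striated muscle. For Onecut2 they were the matrix gene Hmcn1 at 0.14, Sel1l3 at 0.23 and again Ebf2 at 0.25. Likeness over 6 arrays that also hold the difference between groups is a description of these arrays.

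Other genes of the same families and networks were read next, from 6 lists picked by family or textbook role. The lists were made with earlier results of these data known, so their shares are a description and not a test of the families. The lists held 59 measured genes, of which 1 passed the adjusted threshold by limma, against 1.98% of all genes. It was Ezr, which codes for the membrane-cytoskeleton linker ezrin, an epithelial protein. Ezr read 9.57, 9.97 and 9.73 on the deleted arrays and 10.31, 10.30 and 10.49 on the control arrays. It fell by 0.61 (SE 0.11, adjusted p = 0.0452 by limma), and it no longer passed without deleted 1, without deleted 3, without control 1, 2 or 3, with arrays centred on all genes or on housekeeping genes, or with the replicate number as a block. Of the 59 genes 18 had an unadjusted p under 0.05, or 30.5%, against 14.4% of all genes. Their deleted arrays all lay above the controls for 9 genes, or 15.3% against 8.67% of all genes, and all below for 6, or 10.2% against 11.8%. The median difference was 0.02, and 32 of the 59 were above 0; with arrays centred on housekeeping genes 53 were, by the same shift of 0.21 that B2m and Pgk1 set.

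Among the remaining CUT genes, Cux1 averaged 10.62 ± 0.05 (SD, n = 3) in deleted and 10.52 ± 0.09 (SD, n = 3) in control bladders, a difference of 0.09. Satb1, a chromatin organiser with CUT domains, differed by 0.32 (SE 0.11, adjusted p = 0.234 by limma). Onecut3, the last of the Onecut genes and chosen here after its values were seen, differed by -0.06 (95% interval -0.24 to 0.12). None of the 4 measured CUT relatives passed, and 2 had an unadjusted p under 0.05, against 14.4% of all genes. Cux2, chosen here after its values were seen, read 8.81, 8.74 and 8.67 against 8.33, 8.45 and 8.44 (limma adjusted p = 0.0661), and it passed with arrays centred on all genes. Of the Eya and Six-family relatives Eya3 differed by -0.0088 and Six5 by -0.03, and none of 5 passed, 1 with an unadjusted p under 0.05. That gene was Six4, chosen here after its values were seen, at 0.36 (SE 0.11, adjusted p = 0.179 by limma). Among 13 Pax, Dach, Sall1 and Hox11 partners none passed and 2 had an unadjusted p under 0.05; Hoxd11 differed by 0.25 (SE 0.09) and Dach1 by -0.10 (SE 0.12).

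Among 17 other Sox genes none passed the adjusted threshold by limma, and the median difference was -0.0023. Of these genes 4 had an unadjusted p under 0.05, against 14.4% of all genes. Sox9, a factor of cartilage and of several epithelia, differed by -0.05 (SE 0.12, adjusted p = 0.915 by limma). The partners of Zfp521 were 5 genes with a median of 0.30, of which none passed and 3 had an unadjusted p under 0.05. For Ebf4 the difference was 0.30 (SE 0.08, limma adjusted p = 0.132). For Zfp423, the close paralog of Zfp521, it was 0.13 (SE 0.10, limma adjusted p = 0.627). Ebf2, chosen here after its values were seen, differed by 0.96 (SE 0.23, adjusted p = 0.0968 by limma), with control 2 at 7.65 and the lowest deleted array at 7.98.

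**Figure D4:**
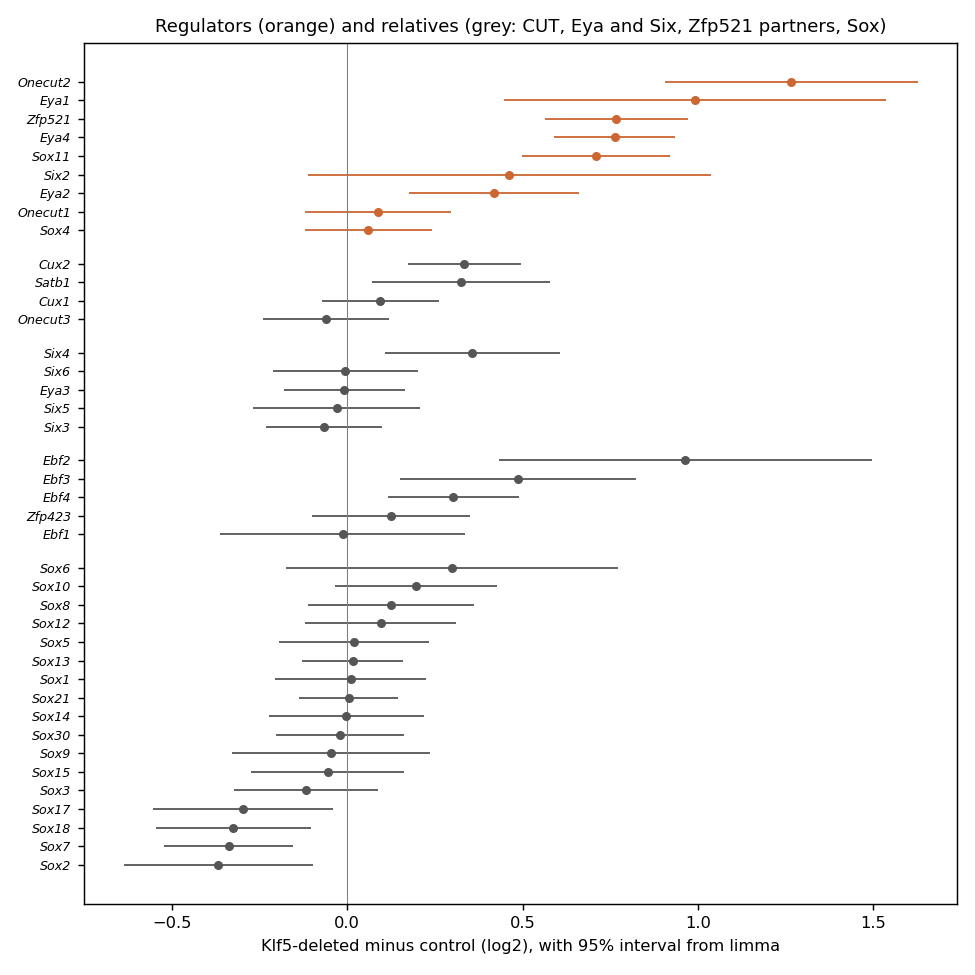
Log2 difference between Klf5-deleted and control bladders, with 95% intervals from limma, for the 9 regulators (orange) and, from the top, the CUT, Six-family and Eya, Zfp521-partner and Sox relatives (grey). Most Sox relatives lie near 0, and the widest intervals among the regulators are those of Eya1 and Six2.

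Reported targets of the members gave 1 call among 15, the fall of Ezr above, against 1.98% of all genes. Of the 15, 6 had an unadjusted p under 0.05, against 14.4% of all genes. Their differences were above 0 for 10 genes and below 0 for 5, with a median of 0.07. Ccnd1, a cyclin that drives entry into the cell cycle, averaged 11.71 ± 0.06 (SD, n = 3) and 11.60 ± 0.08 (SD, n = 3), a difference of 0.12. Tead2, a SoxC target of the Hippo pathway, differed by 0.02 (SE 0.07). Others were chosen for naming after their values were seen. The myogenic factors Myod1 and Myog, which Six-family and Eya proteins activate in muscle, lay 0.70 (SE 0.24) and 0.89 (SE 0.31) higher on average, without passing the threshold (limma adjusted p = 0.247 and 0.255). Myog read 8.09, 8.60 and 8.97 against 7.06, 8.18 and 7.76, so that control 2 lay above deleted 1. The neuronal gene Dcx, a reported SoxC target, read 8.67, 8.50 and 9.29 against 7.36, 8.39 and 7.48. The Dcx difference was 1.08 (SE 0.30, limma adjusted p = 0.154), and it passed the threshold without control 2.

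Neighbouring genes were read as well. The nearest measured genes, 2 on each side of each member in the gene order of assembly GRCm38.p6, made 36 genes. None of the 36 passed the adjusted threshold by limma, against 1.98% of all genes, a share too small to expect a call among 36. Of the 36, 2 had an unadjusted p under 0.05, against 14.4% of all genes. Their median was 0.01 and their range -0.36 to 0.51. At Onecut2 the genes on both sides, St8sia3 and Fech, differed by 0.19 and 0.12, with adjusted p of 0.626 and 0.893 by limma. At Sox11 the genes Gm9866 and Dcdc2c differed by -0.12 and 0.02. The highest neighbour was Gm10824, beyond the mesenchymal factor gene Tcf21 from Eya4, at 0.51 (adjusted p = 0.0959 by limma); Tcf21 itself differed by -0.0060. The lowest was the placental prolactin gene Prl4a1, near Sox4, at -0.36, with its highest reading, 6.84, on control 2, against 5.86 to 6.11 elsewhere.

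RefSeq promoter windows of GRCm38.p6, 250 bases before to 50 after a start site, were available for 5 members: Onecut1, Eya4, Six2, Sox4 and Sox11. Shown are Eya4 and Sox11, which read higher on all deleted arrays, and Sox4 and Onecut1, whose groups overlapped. Capitals mark matches, on either strand, to CACCC or to CCCCNCCC, the boxes bound by Klf and Sp factors; matches of both kinds can overlap. The windows are chr10:23349894-23350193, minus strand, for the first of the overlapping pair of windows of Eya4; chr12:27342669-27342968, minus strand, for Sox11; chr13:28953650-28953949, minus strand, for Sox4; and chr9:74861671-74861970, plus strand, for Onecut1.
Eya4: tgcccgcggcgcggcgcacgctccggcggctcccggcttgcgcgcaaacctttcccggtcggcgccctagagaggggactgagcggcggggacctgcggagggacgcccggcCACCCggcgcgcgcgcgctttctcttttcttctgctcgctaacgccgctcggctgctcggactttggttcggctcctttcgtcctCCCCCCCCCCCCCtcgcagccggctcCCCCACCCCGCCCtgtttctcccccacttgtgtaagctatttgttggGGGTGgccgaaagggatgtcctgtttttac
Sox11: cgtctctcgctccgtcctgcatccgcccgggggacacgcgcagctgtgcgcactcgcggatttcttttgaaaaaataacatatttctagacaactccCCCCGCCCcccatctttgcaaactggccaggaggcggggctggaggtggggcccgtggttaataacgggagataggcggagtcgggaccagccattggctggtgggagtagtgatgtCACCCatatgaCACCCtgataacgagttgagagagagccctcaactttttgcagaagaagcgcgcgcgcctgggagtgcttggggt
Sox4: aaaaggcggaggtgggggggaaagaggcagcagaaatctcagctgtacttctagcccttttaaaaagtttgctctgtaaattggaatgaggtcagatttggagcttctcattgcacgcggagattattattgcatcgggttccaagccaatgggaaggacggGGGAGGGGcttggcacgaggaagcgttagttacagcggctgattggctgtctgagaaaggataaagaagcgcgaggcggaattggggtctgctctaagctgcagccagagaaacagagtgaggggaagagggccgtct
Onecut1: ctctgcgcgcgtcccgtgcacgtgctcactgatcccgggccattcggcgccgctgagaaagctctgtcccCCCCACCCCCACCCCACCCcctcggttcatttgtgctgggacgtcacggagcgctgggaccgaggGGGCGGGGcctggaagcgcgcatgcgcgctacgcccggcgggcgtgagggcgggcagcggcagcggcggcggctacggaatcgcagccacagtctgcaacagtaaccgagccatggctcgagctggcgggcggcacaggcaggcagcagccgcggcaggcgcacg

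CACCC matched 3 times in the Eya4 window, 2 times in that of Sox11, 0 times in that of Sox4 and 3 times in that of Onecut1. CCCCNCCC matched 8 times in Eya4, mostly within a run of C, 1 time each in Sox11 and Sox4 and 4 times in Onecut1. Of 32851 promoter windows of 300 bases in the table, 57.5% held CACCC and 33.2% held CCCCNCCC at least 1 time. At least 3 matches to CACCC, as in Eya4 and Onecut1, were held by 9.35% of windows, and at least 2, as in Sox11, by 25.7%. At least 8 matches to CCCCNCCC, as in Eya4, were held by 0.938%, and at least 4, as in Onecut1, by 4.63%. No window was available for Onecut2, so Onecut1 could not be set beside its paralog. Whether the matches bear on the differences was not tested. The share of G and C was 69.3% for Eya4, 58.7% for Sox11 and 73.0% for Onecut1, above the median window's 52.7%, and 52.0% for Sox4, just under it. A match is a string of letters and not a binding site, and no binding of Klf5 was measured.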

How the data were processed

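Expression was measured on 6 whole-transcript arrays, 3 per group. The deposited values are log2 expression values that the authors made with RMA, per the submitters' processing notes; their annotation and genome build: not given in the sources used here. The table held 35557 features, of which 21789 had 1 gene symbol, 1621 several and 12147 none. Features with 1 symbol were used, and for the 999 genes with several the feature with the highest mean level was taken, leaving 19938 genes. No column was left unmatched to a sample. Differences were fitted over all genes by linear models with moderated errors in limma 3.58.1 under R 4.3.3 (two-sided, no intensity trend) and adjusted by Benjamini-Hochberg, with a threshold of 0.05. With 3 arrays a group an exact permutation test of a single gene cannot go below 0.1, so none was used. The fit was tested on 10 simulated sets of independent normal values with 200 genes changed 2-fold. It recovered 98% of the changed genes, and 6.06% of its calls were unchanged genes. The simulated spread was the moderated spread of the same fit, and changes under 2-fold were not simulated. The 98% therefore does not cover smaller changes. The simulated arrays held no differences in cell content. The members and lists were chosen with earlier results of these data known.

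Genes are named by this rule: all 9 members; in each relatives list those past the threshold and the 2 with the highest mean level; the 3 most similar profiles of members with a range of at least 1; Klf5; and up to 4 markers a list. Other names are marked as chosen after their values were seen, or are neighbours. For each gene the group mean was taken off each array. These deviations correlated at 0.00915, 0.0313 and 0.0787 between same-numbered arrays of the groups. Between arrays of different number they correlated at -0.0533 to 0.011. The values 0.0313 and 0.0787 were thus the highest, so a pairing is not excluded. The main fit did not take the numbers as pairs, and a fit with the replicate number as a block is given below. The alternatives were a replicate block, an intensity trend, array weights, centring on all genes or housekeeping genes, leaving out the lowest 25% of genes, the mean over a gene's features and leaving out each array.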

Additional observations from a re-analysis of the deposited data

How the results depend on the processing

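Of the results above, the direction of every member's difference stayed above 0 in the alternatives run, with Sox4 at -0.0059 without control 2 as the exception. With the replicate number as a block, 110 genes passed instead of 395, of which 107 were shared; 5 instead of 77 were higher, 1 instead of 4 members (Eya4) and 0 relatives passed. Centring on housekeeping genes raised the count to 1633 genes, 1372 of them higher, 7 members and 13 relatives; it moved the median of all genes to 0.202, a shift set by B2m and Pgk1, the middle genes, at -0.28 and -0.20, while the 9 housekeeping genes had a median difference of 0.0070. Centring on the median of all genes gave 116 higher genes. Leaving out 1 array gave 141 (without deleted 1) to 349 genes (without control 2), 17 to 64 higher genes, 2 to 4 members and 0 to 1 relatives. The members were chosen with this contrast known, so their passes in these fits are a description and not tests. Eya4 and Zfp521 passed without each array in turn. Onecut2 did not without deleted 1, nor Sox11 without deleted 1 or deleted 2. The cause was not tested. The intensity trend, array weights, the low-level filter and feature means left the same 4 members past the threshold. The number of arrays, 3 a group, limits the precision.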

Other observations

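The Sox genes of the SoxF group, which are known from endothelium, all read lower on every deleted array than on any control array. This pattern was shown by 11.8% of all genes, and the SoxF genes were picked here after their values were seen. Sox7 read 8.91, 8.89 and 8.95 on the deleted arrays and 9.40, 9.21 and 9.16 on the control arrays, a difference of -0.34 (adjusted p = 0.0945 by limma). Sox18 differed by -0.32 (adjusted p = 0.172 by limma) and Sox17 by -0.30 (adjusted p = 0.28 by limma). Sox2, which is not of this group and was also picked after its values were seen, differed by -0.37 (adjusted p = 0.202 by limma). Its deleted arrays all lay below the controls as well. None of these genes passed the threshold. The 6 endothelial markers had a median difference of -0.05, and none passed by limma. Of them 2 had an unadjusted p under 0.05, against 14.4% of all genes: Cdh5 at -0.20 and Tie1 at -0.22. The part of endothelial cells in the SoxF values was not tested.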
